A study of Homo sapiens with 6 samples.

Results

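The DLX and MSX genes were followed in U87MG cells, an established human line derived from malignant glioma, kept for 24 h with lentivirus, either a control virus (3 libraries, named U87MG-control) or a virus for LMO2 (3 libraries, named U87MG-LMO2). The family has 8 genes, DLX1, DLX2, DLX3, DLX4, DLX5, DLX6, MSX1 and MSX2, found by gene symbol and by Entrez gene identifier. Of these, 7 were among the 27259 genes with a line in any library table. The comparison asks how mRNA levels of these genes differed when LMO2, an adaptor protein of transcription factor complexes, was overexpressed in glioblastoma cells. All 6 libraries share the cell line and a lentiviral transduction. The labels name neither the promoter of the vector, nor any selection of transduced cells, nor whether the 3 libraries of a group came from separate cultures, so the spread between them may be technical. The family was taken up with results of this same comparison known, in which DLX2 and DLX5 had stood out. The fold changes and adjusted p-values of its members below therefore describe where each gene lies in a fit of all genes, and they are no independent test of the family.

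DLX and MSX proteins are homeodomain transcription factors related to the fly genes Distal-less and muscle segment homeobox. The DLX genes lie in pairs that share enhancers. DLX1 and DLX2 are known for GABAergic interneuron differentiation in the forebrain, DLX3 for skin, hair and teeth, DLX4 for the placenta, and DLX5 and DLX6 for bone and craniofacial patterning. MSX1 and MSX2 are classical targets of BMP signalling in teeth, skull and limb buds and act mostly as repressors, and MSX and DLX proteins can bind each other and oppose each other's effects on transcription.

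In the GENCODE annotation of GRCh38, DLX1 lies at chr2:172084740-172089677 on the plus strand and DLX2 at chr2:172099439-172102900 on the minus strand, so that their 3′ ends face each other across a gap of 9761 bp. DLX6 (chr7:97005548-97011039, plus) and DLX5 (chr7:97020392-97024950, minus) face each other in the same way across 9352 bp, and DLX4 (chr17:49968970-49974959, plus) and DLX3 (chr17:49990005-49995224, minus) across 15045 bp. MSX1 (chr4:4859666-4863936, plus) and MSX2 (chr5:174724533-174730893, plus) stand alone. DLX6-AS1, a long noncoding RNA also known as EVF2, spans chr7:96955141-97014065 on the minus strand and covers the whole of DLX6.

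The 250 bases before the RefSeq start site were read for 5 of the 8 genes from the RefSeq promoter set (GRCh38.p14). DLX3, DLX4 and DLX5 had no entry. The sequences of DLX1 (chr2:172085257-172085506, plus strand), DLX2 (chr2:172102901-172103150, minus strand) and DLX6 (chr7:97005303-97005552, plus strand) are shown because these were the members with an entry that were higher in U87MG-LMO2. They are written 5′ to 3′ on the strand of the gene, with motif matches in capitals.
DLX1: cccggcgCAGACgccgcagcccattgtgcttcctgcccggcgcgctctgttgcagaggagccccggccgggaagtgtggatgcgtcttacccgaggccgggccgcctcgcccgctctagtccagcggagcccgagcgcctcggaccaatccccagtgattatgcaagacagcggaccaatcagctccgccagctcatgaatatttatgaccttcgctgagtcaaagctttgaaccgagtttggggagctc
DLX2: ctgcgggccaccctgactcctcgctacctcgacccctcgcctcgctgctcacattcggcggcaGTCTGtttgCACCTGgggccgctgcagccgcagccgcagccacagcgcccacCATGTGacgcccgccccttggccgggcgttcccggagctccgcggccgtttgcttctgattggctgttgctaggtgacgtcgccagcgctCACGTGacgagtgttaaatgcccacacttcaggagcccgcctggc
DLX6: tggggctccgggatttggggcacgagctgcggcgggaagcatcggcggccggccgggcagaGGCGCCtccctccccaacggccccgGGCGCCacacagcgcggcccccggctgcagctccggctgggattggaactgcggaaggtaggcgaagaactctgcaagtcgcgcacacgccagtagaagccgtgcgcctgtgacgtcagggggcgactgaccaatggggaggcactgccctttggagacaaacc
The RefSeq start of DLX1 lies downstream of the GENCODE gene start given above. All 5 promoters lay above the median of 11 CpG dinucleotides over the 35116 promoters of the set. DLX1 held 23, DLX2 and DLX6 25 each, MSX1 24 and MSX2 17. The share of promoters with fewer CpG was 74.2% for DLX1, 78.4% for DLX2 and DLX6, 76.3% for MSX1 and 61.0% for MSX2. The GC content was 63.6% for DLX1, 68.0% for DLX2, 70.0% for DLX6, 74.0% for MSX1 and 55.6% for MSX2, against a median of 58%.

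Known motifs were searched on both strands. A site of the BMP-responsive SMADs, GGCGCC, is marked in capitals in DLX6, from 189 to 184 and from 164 to 159 bases before the start. It occurred in 16.4% of all promoters of the set. The E-box, CANNTG, is marked 3 times in DLX2, the last match lying from 45 to 40 bases before the start. It occurred in 61.8% of all promoters. The short SMAD4 site, GTCTG, is marked once in DLX2 and once, as its reverse complement, in DLX1, and occurred in 38.0%. A homeodomain core, TAATTA, was found once in MSX2 and in 4.35% of all promoters. None of the 5 windows held the GATA site AGATAA, present in 9.17% of all promoters. None held the STAT site TTCNNNGAA, present in 6.57%. MSX1 held no match to any of the 6 motifs. These are matches of letters in a short window and are given as a description.

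The libraries held between 11428432 and 17892955 expected counts (estimated reads per gene), and the 3 U87MG-LMO2 libraries were the deepest of the 6. LMO2 itself measured 0.607, 0.803 and 0.378 CPM (counts scaled by edgeR to a common library size) in U87MG-control replicates 1, 2 and 3 and 333, 307 and 878 CPM in U87MG-LMO2. The labels and the LMO2 level therefore matched in all 6 libraries. U87MG-LMO2 replicate 3 held the most LMO2. Of 9 glioma and astroglial markers, 4 reached 1 FPKM (fragments scaled by gene length and library size) in any library, with VIM and CD44 the most abundant, while S100B, SOX2, OLIG2 and AQP4 stayed below it. GFAP was below it in 5 libraries and has no usable value in U87MG-LMO2 replicate 3. The summed level of the list was 5590 to 5720 FPKM in control and 5690 to 6160 FPKM in U87MG-LMO2. VIM alone gave 5122 to 5210 FPKM in control and 5137 to 5642 FPKM in U87MG-LMO2, so the sum says little about the other markers.

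Of the 8 genes, 5 passed the filter on low counts and were tested in the whole-table edgeR quasi-likelihood fit (16092 genes, Benjamini-Hochberg adjustment, called at an adjusted p under 0.05). DLX1, DLX2, DLX5 and DLX6 rose in U87MG-LMO2, and 0 members were called lower. In the whole table, 4.72% of genes were called higher and 2.75% lower. At an unadjusted edgeR p under 0.05, 1 member (MSX1) was lower, and DESeq2 called it lower as well. Over all 16092 tested genes DESeq2 called 1006 higher and 691 lower, and no such share is given at an unadjusted p. MSX1 was tested and not called, DLX3 and DLX4 were too low to be tested, and MSX2 had no line in any library. Because the filter could be passed through the group where a gene is high, and because the family was taken up from this contrast, nothing is read from the count of called members. These are bulk RNA measurements, in which a change in the number of expressing cells and a change in RNA per cell cannot be told apart.

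**Figure D1:**
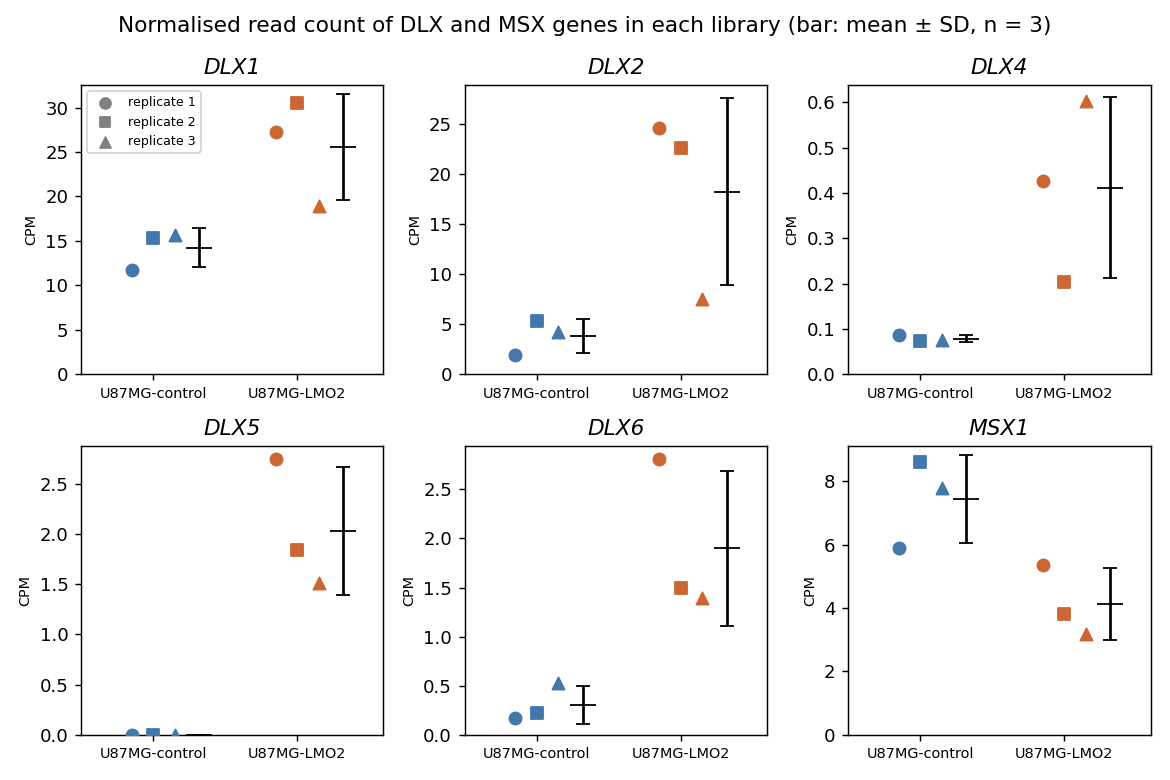
Normalised read count (CPM, vertical axis from 0) of 6 family members in each library, with U87MG-control in blue and U87MG-LMO2 in orange, replicates by marker shape, and black bars for mean ± SD (n = 3). For DLX1, DLX2, DLX4, DLX5 and DLX6 every orange point lies above every blue point, and for MSX1 every orange point lies below. Among all tested genes, the groups did not overlap in the higher direction for 17.5% and in the lower direction for 16.6%. DLX4 was too low to be among the tested genes. In DLX1, DLX2, DLX5, DLX6 and MSX1 the lowest orange point is replicate 3.

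The pair DLX1 and DLX2 gave most of the DLX mRNA in both groups. DLX2, a homeodomain activator in interneuron precursors, held 22, 73 and 55 expected counts in U87MG-control replicates 1, 2 and 3, which is 1.91, 5.33 and 4.16 CPM. In U87MG-LMO2 it held 404, 332 and 124 counts, which is 24.6, 22.6 and 7.47 CPM. The groups did not overlap, but replicate 3 of U87MG-LMO2 lay much nearer to the control libraries than replicates 1 and 2 did. DLX2 rose from 3.80 ± 1.74 to 18.2 ± 9.39 CPM (SD, n = 3), a log2 fold change of 2.24 (SE 0.48, 95% interval 1.16 to 3.33) with an edgeR adjusted p of 0.0302.

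DLX1, the partner of DLX2, acts with it in the same precursors. It held 135, 210 and 207 counts in control (11.7, 15.3 and 15.7 CPM) and 447, 447 and 313 counts in U87MG-LMO2 (27.3, 30.5 and 18.9 CPM). Control replicate 1 was the lowest library and U87MG-LMO2 replicate 3 was again the lowest of its group, without overlap between the groups. DLX1 rose from 14.2 ± 2.19 to 25.5 ± 6.0 CPM (SD, n = 3), a log2 fold change of 0.84 (SE 0.20, 95% interval 0.39 to 1.29) with an edgeR adjusted p of 0.0408.

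The calls of DLX1 and DLX2, like those over all tested genes, were sensitive to the choice of libraries. Without control replicate 1, 2 or 3 or U87MG-LMO2 replicate 1 or 2, neither was called, with adjusted p-values of 0.0753 to 0.147 for DLX1 and 0.0531 to 0.122 for DLX2, while both were called without U87MG-LMO2 replicate 3. Over all tested genes, the calls fell from 1203 to between 144 and 883 in the fits that lost both. They rose to 2409 without U87MG-LMO2 replicate 3. The fold changes of DLX1 and DLX2 stayed positive throughout, at log2 values of 0.69 to 1.01 for DLX1 and 1.63 to 2.61 for DLX2 over 14 alternatives.

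Within a library, DLX2 stood at 0.160, 0.343 and 0.263 of the DLX1 level per length (FPKM) in U87MG-control and at 0.892, 0.736 and 0.390 in U87MG-LMO2. The ratio was 0.255 ± 0.0917 in control and 0.673 ± 0.257 in U87MG-LMO2 (SD, n = 3). The groups did not overlap, and the lowest U87MG-LMO2 ratio, in replicate 3, was close to the highest control ratio. In the 2 other U87MG-LMO2 libraries DLX2 came near the level of DLX1. DLX2-DT, the noncoding RNA divergent from DLX2 (chr2:172103006-172109982, plus strand), had 1 to 3 counts in every library and was too low to be tested.

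The pair DLX5 and DLX6 was at or near the detection limit in control. DLX5, known as a BMP-responsive gene of osteoblast differentiation, had 0 counts in all 3 U87MG-control libraries, where 3 counts stand for 0.219 to 0.260 CPM. In U87MG-LMO2 it held 44.97, 27 and 25 counts, which is 2.74, 1.84 and 1.51 CPM. Every U87MG-LMO2 library thus held DLX5 reads and no control library did. The U87MG-LMO2 level of 2.03 ± 0.641 CPM (SD, n = 3) was at least 7.80-fold higher than control, taking as the floor 3 counts in the control library with the highest such limit. The edgeR adjusted p was 0.00677, and DLX5 was called in all 12 alternatives in which it was tested.

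DLX6 partners DLX5 in jaw and limb patterning. It held 2.02, 3.02 and 7.06 expected counts in control (0.174, 0.219 and 0.530 CPM) and 45.59, 22.26 and 23.21 counts in U87MG-LMO2 (2.81, 1.5 and 1.39 CPM). All U87MG-LMO2 libraries lay above all control libraries, with replicate 1 the highest for DLX6 as for DLX5. DLX6 rose from 0.307 ± 0.194 to 1.90 ± 0.789 CPM (SD, n = 3), a log2 fold change of 2.58 (SE 0.49, 95% interval 1.47 to 3.68) with an edgeR adjusted p of 0.0212. Summed over libraries, 91 counts against 12 gave a depth-corrected ratio of 6.11 (exact 95% interval 3.34 to 12.3, counting error only). DLX6 was not called without control replicate 1, 2 or 3 or without U87MG-LMO2 replicate 1, with adjusted p-values of 0.0573 to 0.0996.

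In U87MG-LMO2 replicates 1, 2 and 3, DLX6 stood at 0.596, 0.506 and 0.548 of the DLX5 level in FPKM (0.550 ± 0.045, SD, n = 3). Its SD was smaller than the 0.257 of the ratio of DLX2 to DLX1 in the same libraries. The ratio of DLX6 to DLX5 rests on 22.26 to 45.59 counts of DLX6 and 25 to 44.97 counts of DLX5. Counting error therefore limits what its spread shows. In control the ratio of DLX6 to DLX5 could not be formed, since DLX5 was at 0.

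DLX6-AS1, the antisense neighbour that is transcribed across DLX6, measured 1.91, 2.04 and 2.42 CPM in control and 2.07, 3.20 and 3.19 CPM in U87MG-LMO2, so that the groups overlapped. Its log2 fold change was 0.40 (SE 0.25, 95% interval -0.17 to 0.97) with an edgeR adjusted p of 0.346. Relative to DLX6-AS1, DLX6 stood at 0.0918 to 0.231 in control and at 0.463 to 1.42 in U87MG-LMO2, on the FPKM scale. Both genes carry fractional expected counts and overlap on opposite strands. The counting was not stated to use strand, so reads of DLX6 and DLX6-AS1 may not be fully separated.

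The pair DLX3 and DLX4 stayed low. DLX4, known from placenta and blood cells, held 1 count in each control library and 7, 3 and 10 counts in U87MG-LMO2, that is 0.0868, 0.0730 and 0.0757 CPM against 0.427, 0.204 and 0.603 CPM. The groups did not overlap, in counts too low for the filter. The ratio of the summed counts, 20 against 3 with depth corrected, was 5.38 (exact 95% interval 1.59 to 28.2, counting error only), and a fit without the filter gave an edgeR adjusted p of 0.111. DLX4 differed from the other DLX genes in that U87MG-LMO2 replicate 3 was the highest library. DLX3, the epidermal and tooth member, had 2 counts in U87MG-LMO2 replicate 1 and 0 in the other 5 libraries, so no difference was detectable at this depth.

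MSX1, the BMP-induced repressor of tooth and palate development, was the one tested member with a negative fold change. It held 68, 118 and 103 counts in control (5.90, 8.62 and 7.79 CPM) and 88, 56 and 53 counts in U87MG-LMO2 (5.37, 3.82 and 3.19 CPM). The groups did not overlap, by a margin between control replicate 1 and U87MG-LMO2 replicate 1 that was small beside the spread within either group. In the whole table, the CPM of the groups did not overlap in the lower direction for 16.6% of genes and in the higher direction for 17.5%. The means were 7.44 ± 1.39 and 4.13 ± 1.12 CPM (SD, n = 3), a log2 fold change of -0.85 (SE 0.24, 95% interval -1.39 to -0.31) with an edgeR adjusted p of 0.0656, so MSX1 was not called. It was called lower in 3 alternatives, with DESeq2 (adjusted p 0.0266), without the filter on low counts (0.0468) and after a correction for GC content (0.04998). MSX2, its close relative in skull and limb, had no line in any of the 6 tables and was taken as 0 counts, which allows up to 3 counts per library.

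**Figure D2:**
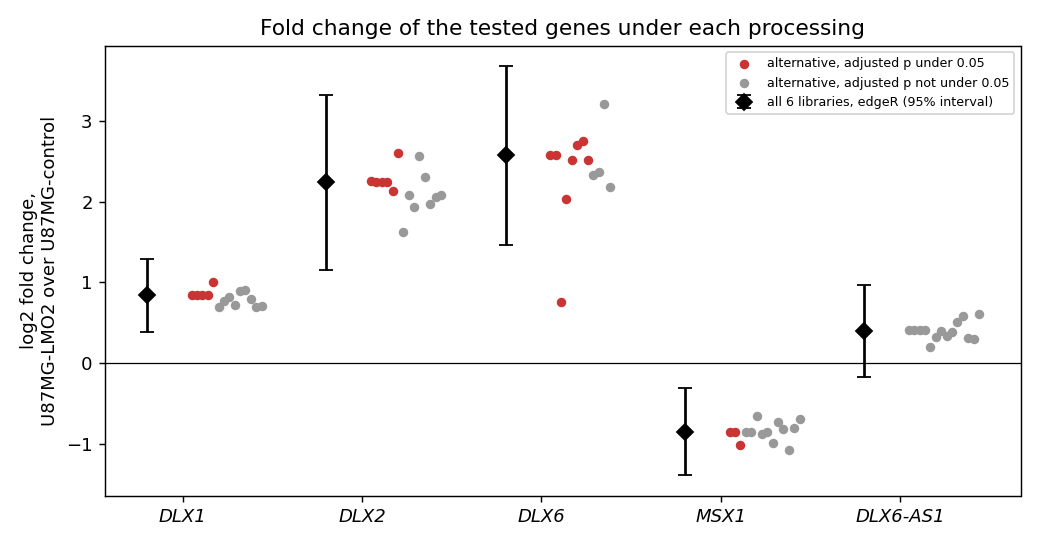
Log2 fold change of U87MG-LMO2 over U87MG-control (vertical axis) for the 4 tested members with reads in both groups and for DLX6-AS1. Black diamonds with 95% intervals show the edgeR fit of all 6 libraries, and dots show each alternative processing, red where the adjusted p was under 0.05. DLX1, DLX2 and DLX6 lie above 0 and MSX1 lies below 0 in every alternative that gave them an adjusted p. Each has both red and grey dots, and the isolated low dot of DLX6 at 0.76 is the fit of log2(FPKM + 1).

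Set in order of FPKM, DLX1 was the highest member in control at 6.29 ± 0.951, above MSX1 at 3.87 ± 0.727, DLX2 at 1.66 ± 0.762 and DLX6 at 0.163 ± 0.102 (SD, n = 3). These 4 did not overlap between neighbours in the order, and DLX4 averaged 0.0433 FPKM below them. In U87MG-LMO2 the order was DLX1 at 11.0 ± 2.97, DLX2 at 7.87 ± 4.25, MSX1 at 2.10 ± 0.655, DLX5 at 1.77 ± 0.652, DLX6 at 0.990 ± 0.437 and DLX4 at 0.217 FPKM. Here DLX1 overlapped with DLX2, MSX1 with DLX5, and DLX5 with DLX6 over the 3 libraries. MSX1 thus stood above DLX2 in every control library and below it in every U87MG-LMO2 library.

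The DLX genes together summed to 6.16, 9.28 and 9.01 FPKM in control (8.15 ± 1.73, SD, n = 3) and to 27.2, 25.6 and 12.9 FPKM in U87MG-LMO2 (21.9 ± 7.84). The sum in U87MG-LMO2 replicate 3 was less than that in replicates 1 and 2 and still above every control library. DLX1 made up 73.2 to 84.3% of the sum in control and 44.5 to 59.6% in U87MG-LMO2, DLX2 13.5 to 25.1% and 23.2 to 39.7%, and DLX5 0% and 6.17 to 9.63%. The DLX1 shares did not overlap between the groups, and the DLX2 shares did, since U87MG-LMO2 replicate 3 lay below control replicate 2. MSX1 stood at 0.589 to 0.661 of the DLX1 level in control and at 0.148 to 0.232 in U87MG-LMO2. This ratio of a single MSX to a single DLX gene was 0.614 ± 0.0407 in control and 0.193 ± 0.0423 in U87MG-LMO2 (SD, n = 3).

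**Figure D3:**
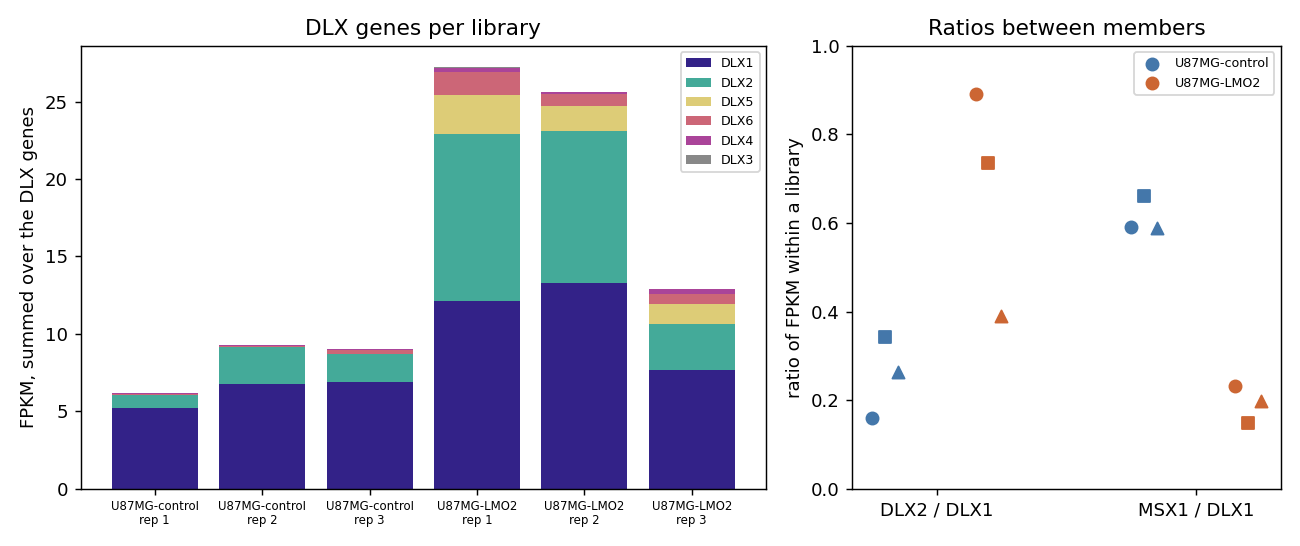
Left, FPKM of the DLX genes stacked for each library, with the colours naming the genes. Right, the ratio of FPKM of DLX2 to DLX1 and of MSX1 to DLX1 within each library, with U87MG-control in blue, U87MG-LMO2 in orange and replicates by marker shape. The summed level runs from 6.16 to 9.28 in control and from 12.9 to 27.2 in U87MG-LMO2, where DLX5 appears. The DLX2 share overlaps between the groups, at 13.5 to 25.1% in control and 23.2 to 39.7% in U87MG-LMO2.

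U87MG-LMO2 replicate 3, which held the most LMO2 (878 CPM), had the lowest DLX1, DLX2, DLX5 and DLX6 of its group, and also the lowest MSX1 and the highest DLX4. With 3 libraries in a group no relation between the LMO2 level and any member was computed.

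BMP ligands bind receptor pairs that phosphorylate SMAD1, SMAD5 and SMAD9, which enter the nucleus with SMAD4 and switch on ID, MSX and DLX genes together with the inhibitory SMAD6 and SMAD7. Of 28 genes of this pathway, 22 were tested, 1 was called higher and 0 lower (4.55%, against 7.48% of all tested genes in either direction). At an unadjusted p under 0.05 edgeR put 7 higher and 2 lower, and DESeq2 called 3 higher (SMAD7, GDF5 and GREM1) and 0 lower. Over all 16092 tested genes DESeq2 called 1006 higher and 691 lower. No share over all genes is given at an unadjusted p, so nothing is read from such counts, here or by role. The median log2 fold change of the pathway was 0.10, against -0.011 over all tested genes. The called gene was SMAD7, the inhibitor that targets the receptors, at 6.51, 17.4 and 15.7 CPM in control and 32.2, 42.1 and 32.7 CPM in U87MG-LMO2. Its log2 fold change was 1.42 (SE 0.30, edgeR adjusted p 0.0301). SMAD7 was not called without control replicate 2 or 3 or without U87MG-LMO2 replicate 1 or 2, with adjusted p-values up to 0.0902.

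By role, the 4 tested ligands had log2 fold changes from -0.84 to 0.97, the 6 receptors from -0.35 to -0.02 and the 4 signal-carrying SMADs from -0.15 to 0.76, with none called by edgeR. At an unadjusted p under 0.05, 1 ligand was higher, 1 ligand and 1 receptor were lower and 1 SMAD was higher, and DESeq2 called 1 ligand (GDF5). The 5 tested inhibitors and antagonists ran from 0.17 for FST to 1.75 for SMAD6. At an unadjusted edgeR p under 0.05, 3 of them were higher and 0 lower, and DESeq2 called 2 (SMAD7 and GREM1). The 3 tested ID genes ran from 0.72 to 1.24. None of the ID genes was called by edgeR or DESeq2, and 2 of them were under an unadjusted p of 0.05. U87MG-control replicate 1 stood apart in the tested ID genes, SMAD6 and SMAD7. ID1 was at 22.6 CPM there against 121 and 109 CPM in control replicates 2 and 3, and ID2 at 3.82 against 17.6 and 13.5 CPM. ID3 was at 29.2 against 128 and 111 CPM and SMAD6 at 3.12 against 21.4 and 19.1 CPM. Without that library the log2 fold changes were 0.67 for ID1, 0.84 for ID2, 0.30 for ID3 and 1.28 for SMAD6, with none of the 4 called. SMAD7, at 6.51 CPM there against 17.4 and 15.7 CPM, went from 1.42 to 1.10 and was still called (edgeR adjusted p 0.0396). ID1 was picked by the study from these libraries, and GREM1, a secreted BMP antagonist, also stood out in earlier results of these data, so neither is independent evidence of a direction. BMP4 had 0 counts in every library.

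Among 18 genes known as partners or targets of DLX and MSX proteins, 12 were tested, 1 was called higher and 1 lower (16.7%, against 7.48% of all tested genes), with a median log2 fold change of 0.12. RUNX2, the osteoblast factor that DLX5 activates and MSX2 opposes, rose from 21.3 ± 1.34 to 30.3 ± 0.778 CPM (SD, n = 3), a log2 fold change of 0.51 (SE 0.11, edgeR adjusted p 0.0308). SPP1, which encodes the bone matrix protein osteopontin, fell from 405 ± 21.9 to 175 ± 24.0 CPM, a log2 fold change of -1.21 (SE 0.12, edgeR adjusted p 0.00293). SPP1 was called in all 14 alternatives and RUNX2 in 6, being lost without any 1 of the 3 control libraries or U87MG-LMO2 replicate 1 or 2 (adjusted p up to 0.131). GAD1, the GABA-synthesising enzyme of interneurons downstream of DLX1 and DLX2, stood at 5.74 and 6.77 FPKM with an adjusted p of 0.245. GAD2, another gene downstream of the same pair, had 0 counts in every library.

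Markers of cell types in which DLX genes are known to act were followed as well. Of 7 neuronal markers, 2 reached 1 FPKM (SNAP25 and GAD1), STMN2 and GAD2 were at 0, and the summed level was 18.3 to 21.8 FPKM in control and 19.8 to 21.6 FPKM in U87MG-LMO2. Of 5 osteoblast markers, 2 reached 1 FPKM (RUNX2 and BGLAP), and SP7 and IBSP stayed near 0. ALPL had 0 counts in every control library and 3, 1 and 8 counts in U87MG-LMO2. BGLAP stood at 0.673 ± 0.429 FPKM in control and 2.0 ± 0.833 FPKM in U87MG-LMO2 (SD, n = 3). The sum over the 5 markers was 6.40 to 6.89 FPKM in control and 10.0 to 11.1 FPKM in U87MG-LMO2. RUNX2 made up most of this sum and was the 1 marker of the list that could be tested. SPP1, a bone matrix gene that is not on the list, fell as given above. Whether osteoblast-like expression had a part in the DLX levels was not tested.

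As a comparison within the homeobox class, 55 homeobox genes outside the HOX clusters and outside the family were examined. Of these 26 were tested, 14 had 0 counts in every library, and 1 was called higher and 1 lower (7.69%, against 7.48% of all tested genes), with a median log2 fold change of -0.02. CUX1, a widely expressed cut-like homeobox gene, had a log2 fold change of 0.44 (SE 0.10, edgeR adjusted p 0.0329), and PITX1, a hindlimb and pituitary factor, one of -0.49 (SE 0.12, edgeR adjusted p 0.0432). Both calls were lost without any 1 of the 3 control libraries or U87MG-LMO2 replicate 1 or 2, with adjusted p-values up to 0.229 for CUX1 and 0.173 for PITX1 over all alternatives. The tested values ran from -0.79 for NKX6-1 to 0.44 for CUX1.

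The 30 nearest protein-coding genes, 3 on each side of each pair and of MSX1 and MSX2, were set beside the members. Of these 19 were tested, 0 were called higher and 2 lower (10.5%, against 7.48% of all tested genes in either direction and 2.75% lower), and the median log2 fold change was 0.02. At an unadjusted edgeR p under 0.05, 4 were higher and 3 lower, and DESeq2 called 2 higher (PDK2 and CPEB4) and 2 lower. Over all 16092 tested genes DESeq2 called 1006 higher and 691 lower, and no such share is given at an unadjusted p. ITGA6, the laminin receptor subunit encoded near DLX1 and DLX2, fell from 20.2 ± 1.25 to 8.45 ± 0.833 CPM (SD, n = 3), a log2 fold change of -1.25 (SE 0.13, edgeR adjusted p 0.00344), and was called in all 14 alternatives. EVC2, a ciliary gene near MSX1, had a log2 fold change of -0.90 (SE 0.16, edgeR adjusted p 0.0175), which was lost without any 1 of the 3 control libraries or U87MG-LMO2 replicate 1 (adjusted p up to 0.0923). Of the 5 tested neighbours of DLX5 and DLX6, 0 were called by edgeR or DESeq2, and 1 was higher and 1 lower at an unadjusted edgeR p under 0.05. TAC1, a neighbour of the same pair, had 0 counts.

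**Figure D4:**
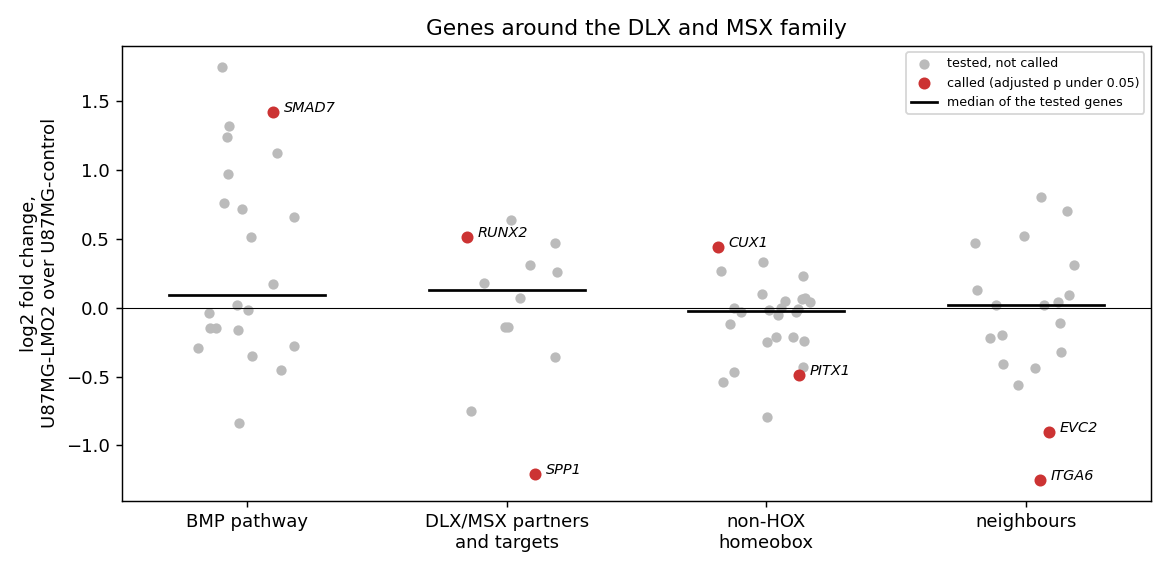
Log2 fold change of U87MG-LMO2 over U87MG-control (vertical axis) for every tested gene of the BMP pathway, of the partners and targets of DLX and MSX proteins, of other homeobox genes and of genes next to the members. Grey dots were not called, red named dots were called at an adjusted p under 0.05, and bars mark medians, which lie between -0.02 and 0.12. SMAD7, RUNX2 and CUX1 are the red dots above 0, and SPP1, PITX1, ITGA6 and EVC2 those below.

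The genes whose pattern over the 6 libraries was most like that of a member were found by the root mean square difference of centred log2 CPM, among 16092 genes. For DLX1 these were PKMYT1 (0.0589), NIPAL3 (0.0638) and AP1M2 (0.0813), against a median of 0.527 over all genes. For DLX2 they included FRMPD3 (0.233) and LHB (0.305), against a median of 1.30, while DLX6, the most alike of the members, stood at 0.593. For DLX5 they were IGFBP4 (0.325), KRTAP1-5 (0.546) and LRRC32 (0.578), against 1.99. Their fitted log2 fold changes were 3.81, 4.8 and 4.02, against 7.87 for DLX5. With 0 counts of DLX5 in control, its pattern there is set by the prior count of 2, so this likeness depends on that choice. For DLX6 they were ACTC1 (0.219), TFAP2C (0.268) and ANK1 (0.403), against 1.21. For MSX1 they were ERVE-5 (0.0910), RAET1K (0.106) and LOC105376426 (0.114), against 0.533. No member was among the 3 most alike genes of another member. The measure is not scaled for the size of change, so members with unlike fold changes stand apart by it. The log2 fold changes of DLX1 and DLX2 were 0.84 and 2.24. Whether members vary together between libraries was not tested. KRTAP1-5 and ERVE-5 belong to multigene families with close copies, so their counts are uncertain.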

How the data were processed

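Total RNA of U87MG cells was sequenced by a service company. Each deposited library table gives, per Entrez gene, an expected count (estimated reads, not normalised), a gene length weighted over transcripts and an FPKM value (fragments scaled by gene length and library size) computed by the authors. The submitters' processing notes name Bowtie2, BWA and GRCh38.p12 without roles or versions. The authors also deposited a comparison table with mean FPKM per group, log2 ratios and probabilities; the ratios and probabilities are the authors' own comparison and were not used. A gene without a line in a library was taken as 0 counts. The U87MG-LMO2 replicate 3 table had 3 unreadable lines, and 131 genes whose FPKM did not match the authors' group mean within 0.006 (0.35% of control counts, no family member) were left out. Symbols came from a RefSeq gene table for 89.6% of genes.

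Expected counts were rounded and fitted with edgeR 4.0.16 in R 4.3.3 (filterByExpr, TMM, quasi-likelihood test, 2-sided, Benjamini-Hochberg over 16092 genes, called at an adjusted p under 0.05). A log2 CPM with a prior count of 2 was used for pattern likeness. Libraries held 11428432 to 17892955 expected counts, and a count of 0 allows up to 3 counts per library. Intervals on sums of counts cover counting error only. Groups came from the treatment labels. The replicate numbers of the 2 groups were treated as names only, since nothing ties equal numbers to a shared culture or day. The members, the gene lists and the tests were chosen with earlier results of these data known. Genes named in the text are LMO2, all members, transcripts named after a member, from each list up to 4 called genes in each direction by lowest adjusted p, and for each member with a mean of at least 1 CPM the 3 tested genes with the most alike pattern, of which 1 is not reported here. FST, SMAD6, GDF5, GREM1, PDK2, CPEB4, ID1, ID2, ID3, BMP4, GAD1, GAD2, NKX6-1, TAC1 and the marker genes were named after their values were seen. Alternatives were DESeq2 1.42.0, upper-quartile scaling, other filters on low counts, limma 3.58.1 on log2 FPKM with a pseudocount of 1 or 0.1, a replicate block, leaving out each library in turn and, added after seeing the data, a correction for GC content.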

Additional observations from a re-analysis of the deposited data

How the results depend on the processing

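The fold changes of DLX1, DLX2, MSX1 and DLX6-AS1 kept their sign in 14 alternatives. Those of DLX5 and DLX6 did so in the 12, and that of LMO2 in the 13, in which each had an adjusted p. LMO2 was called in all 13. DLX3 and DLX4 had a fold change only without the filter on low counts, and MSX2 had none. The count of members called higher was 4 with all libraries. It was 2 (DLX1 and DLX2) with DESeq2, where the adjusted p of DLX5 and DLX6 is not given. It was also 2 (DLX1 and DLX2) with at least 10 counts in every library, a filter that removes DLX5 and DLX6. With limma on log2 FPKM at either pseudocount and after the GC-content correction it was 2, there DLX5 and DLX6. It ran from 1 to 4 when 1 library was left out. DLX1 was called in 5 of 14 alternatives, DLX2 in 6 of 14, DLX6 in 8 of 12 and DLX5 in 12 of 12. The count of members called lower, 0 with all libraries, was 1 (MSX1) with DESeq2, without the filter and after the GC-content correction, and 0 to 0 when 1 library was left out. Transcripts of the 8 members held 53.1 to 62.3% GC, against a median of 49.7% over the 89.8% of tested genes with a value.

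The count of BMP pathway genes called, 1, became 3 with DESeq2 and 3 without the filter, and 0 to 5 when 1 library was left out. For other homeobox genes, 2 became 3 with DESeq2 and without the filter, 1 with limma at either pseudocount, 1 after the GC-content correction, 0 under the replicate block and 0 to 4 with 1 library left out. For partners and targets, 2 became 3 with DESeq2 and without the filter, 1 with limma at either pseudocount, 1 under the block and 1 to 2 with 1 library left out, and for neighbouring genes 2 became 4 with DESeq2, 3 without the filter and after the GC-content correction and 1 to 5 with 1 library left out. The 1203 genes called in all became 576 under the replicate block (387 higher, 189 lower) and 144 to 2409 with 1 library left out, the fewest without U87MG-control replicate 3. Among the fits that left out 1 library, each of these counts except that of members called lower was highest without U87MG-LMO2 replicate 3. The cause was not tested. Libraries with the same number did not deviate together (correlations of deviations -0.12, -0.0034 and -0.041), so the block pairs nothing known. Under it DLX1 was not called (adjusted p 0.0683), and the calls of DLX2, DLX5 and DLX6 held. Depth limits DLX3, DLX4 and MSX2, which had at most 10 counts in any library, and gives only a bound for the fold change of DLX5.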

Other observations

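The gene lengths that the authors' tables give, weighted by the abundance of each transcript, varied between libraries for DLX1 (2267 to 2290 bases), DLX4 (1765 to 2012 bases) and DLX5 (1132 to 1186 bases). They were the same in every library for DLX2 (2308 bases), DLX6 (1892 bases) and MSX1 (1940 bases). For DLX4 the length rests on 1 to 10 counts per library. MSX2P1, a processed pseudogene of MSX2, had 1 count in U87MG-LMO2 replicate 3 and none in the other libraries.

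Within single libraries, the FPKM of DLX1 exceeded that of 60.5% to 77.0% of the listed genes, that of DLX2 35.8% to 74.1% and that of MSX1 47.1% to 59.2%. DLX5, in the 3 libraries that list it, exceeded 44.2% to 51.8% of genes.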
